A study of Homo sapiens with 16 samples.

Results

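THP-1 is a line of human monocytic leukaemia cells, in which SLAM-seq followed the TAM receptors AXL and MERTK and their ligands GAS6 and PROS1 under ALKBH5 knockdown (labelled A5-KD) and in wild-type control. The 4 genes were chosen by symbol: 2 receptors and 2 ligands among the 60564 genes of the deposited table, each with 1 row there. All 4 passed the abundance minimum, a depth-scaled read count (CPM) of at least 1, and so lay among the 16241 genes tested. In SLAM-seq, 4-thiouridine (4sU) enters new RNA and is read as T-to-C conversions. Both genotypes received 100 µM 4sU for 1 h and then a chase in 10 mM uridine, and were collected at 0, 1.5, 4.5 and 7.5 h, with 2 libraries for each genotype and time, 16 in all. How ALKBH5 was knocked down, and whether the cells were a pool or a clone, is not given in the sources used here.

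AXL, MERTK and TYRO3 form a family of receptor tyrosine kinases that macrophages use to clear dying cells and to dampen inflammatory signalling. Their ligands GAS6 and protein S, the product of PROS1, bridge the receptors to phosphatidylserine on dying cells and are carboxylated in a vitamin K-dependent step. Protein S is also known as an anticoagulant, and it binds MERTK and TYRO3, whereas GAS6 binds all members of the family. ALKBH5 is a demethylase that erases m6A from RNA, and AXL has been proposed as one of its targets in myeloid leukaemia.

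GGACT, written here in DNA letters, is the most frequent form of the m6A consensus, so short coding windows that hold it are shown for each gene. It was searched on the sense strand only, in the principal GENCODE 29 transcript of each gene, and overlaps no other motif searched. The AXL transcript (4737 bases) held 8 matches, MERTK (3954 bases) 4, GAS6 (2490 bases) 5 and PROS1 (2398 bases) 1. That made 1.69 per kb for AXL, 1.01 for MERTK, 2.01 for GAS6 and 0.417 for PROS1. Across the transcripts of 12337 tested genes the median was 0.935 per kb, and 90.5% of these transcripts held at least 1 match. Each window below has 15 bases on either side of the match, lies in the coding part of 1 exon and is written 5′ to 3′ with GGACT in capitals. A match is a description of the sequence, since methylation was not measured in these libraries.
AXL, exon 18: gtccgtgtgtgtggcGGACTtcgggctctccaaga
MERTK, exon 17: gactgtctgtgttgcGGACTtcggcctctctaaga
GAS6, exon 11: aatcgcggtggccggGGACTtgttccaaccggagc
PROS1, exon 13: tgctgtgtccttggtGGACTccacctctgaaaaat

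The AXL window lies at chr19:41256467-41256501 on the plus strand of GRCh38, and the MERTK window at chr2:112021437-112021471 on the plus strand. They are the closest of the 10 pairs of AXL and MERTK windows, matching at 29 of 35 positions, where the others matched at 9 to 16. The match describes the coding sequence of related receptors and does not show a shared m6A site. The GAS6 window lies at chr13:113828615-113828649 and the PROS1 window at chr3:93879168-93879202, both on the minus strand. T bases, the only ones that the assay reads, made up 23.7% of the AXL transcript, 25.7% of MERTK, 17.6% of GAS6 and 28.1% of PROS1, against a median of 24.9%.

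The values are conversion rates, read as the share of a gene's sequenced T positions that were converted, and given in percent. The header names neither genotype nor unit. Columns beginning with C were taken as control by their initial and those beginning with S as A5-KD by elimination, and every direction below rests on this. No column counts the T positions behind a rate, which leaves its depth unknown and allows no counting interval. The median rate of the tested genes ran from 0.532% to 1.19% across the A5-KD libraries and from 0.250% to 0.556% across the control libraries, so rates were higher throughout the transcriptome in A5-KD. A rate is a share: unlabelled RNA made during the chase lowers it, and it holds no abundance. For ALKBH5 itself the rates therefore do not check the knockdown; they averaged 2.88% ± 0.599 in A5-KD and 0.599% ± 0.302 in control at 0 h (SD, n = 2). Nothing in the labels says that replicates came from separate cultures, so the p-values measure the spread between these libraries, which may be technical.

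The table also holds 1 CPM column whose library is not named, so abundance could not be compared between genotypes. In it AXL had 58.3 CPM, MERTK 14.5, PROS1 14.2 and GAS6 8.84, against a median of 9.66 for the tested genes. Per kb of the principal transcript these came to 12.3 for AXL, 5.92 for PROS1, 3.67 for MERTK and 3.55 for GAS6. With the smallest value of the column taken as 1 read, they came to 2202 for AXL, 548 for MERTK, 537 for PROS1 and 334 for GAS6. These are reads of this column and are not shown to be those behind the rates. TYRO3, the remaining TAM receptor, had 0.741 CPM, or 28 reads, and fell below the minimum. The monocyte and THP-1 markers fitted the label: 14 of 15 were at or above the minimum, led by FCER1G at 1425 CPM and LYZ at 1276 CPM, with MPO at 0.185 CPM. HBB, HBA1, COL1A2, DCN, CD3D, CD79A and MS4A1, which mark erythroid cells, fibroblasts and lymphocytes, were at 0. PECAM1, which monocytes also express, had 25.2 CPM and the epithelial marker CDH1 2.88 CPM.

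AXL rates were higher in A5-KD than in control at every time, and they moved less over the chase than those of the median gene. At 0 h they were 0.829% and 0.717% in A5-KD, against 0.274% and 0.287% in control. At 1.5 h they were 0.801% and 0.747% in A5-KD, against 0.257% and 0.268% in control. Every A5-KD library lay above every control library at these times. At 4.5 h they were 0.576% and 0.671% in A5-KD, against 0.226% and 0.251% in control. At 7.5 h they were 0.538% and 0.531% in A5-KD, against 0.260% and 0.241% in control. The groups did not overlap at any of the 4 times, which was also so for 40.5% of the tested genes with A5-KD above. AXL lies on chromosome 19 from 41219203 to 41261766 (GRCh38, plus strand, ENSG00000167601), and the antisense gene AC011510.1 within it was listed at 0 CPM.

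**Figure D1:**
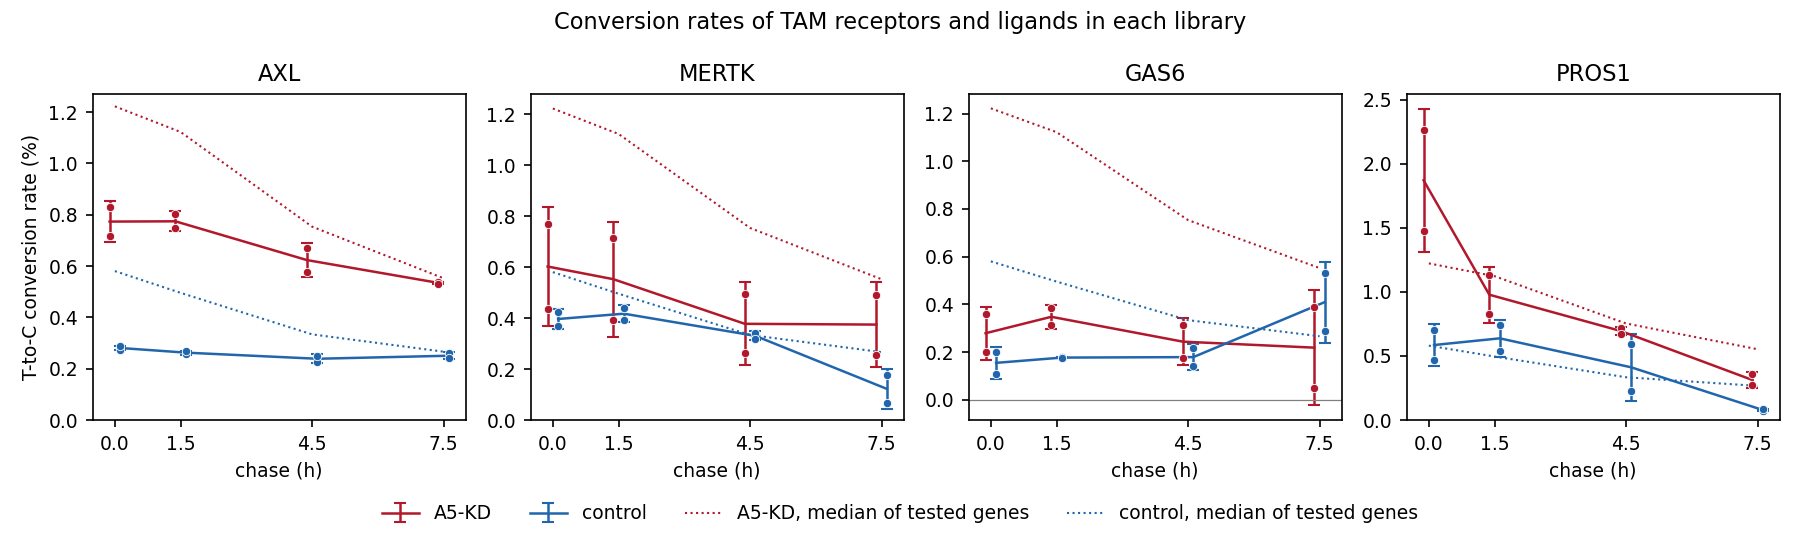
T-to-C conversion rate in percent (y axis, its range set per gene) against hours of chase (x axis) for each of the 16 libraries. Points are libraries, lines join the means of 2 libraries, bars are SD, and dotted lines are the median over tested genes of the group means. AXL stays between 0.226% and 0.287% in control and below the dotted line, closest to it at 7.5 h, PROS1 starts highest, and the A5-KD points of MERTK lie far apart at every time.

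Over the whole chase the AXL rate was 1.22 log2 higher in A5-KD than in control (SE 0.0848, 2.33-fold, n = 8 libraries each, limma adjusted p = 1.39e-08), where log2 values are of the rate in percent plus 0.05. The effect was called at each time, being 1.31 at the end of the pulse, 1.40 after 1.5 h, 1.22 after 4.5 h and 0.96 after 7.5 h of chase, with adjusted p from 7.92e-05 to 9.47e-04. Of the tested genes 69.6% were called higher and 0.172% lower over the whole chase, and at single times the calls were 35.6% higher and 0.179% lower for 0 h, 38.9% higher and 0.117% lower for 1.5 h, 38.3% higher and 0.234% lower for 4.5 h, and 33.5% higher and 0.308% lower for 7.5 h. The median over tested genes was 1.02 over the whole chase and 0.92 to 1.08 at single times, so AXL moved with the transcriptome. With each library centred on its own median, which takes away this common shift, the AXL effect was 0.17 (95% interval 0.01 to 0.34, adjusted p = 0.225) and was not called. On that scale 1.45% of genes were called higher and 4.59% lower, and limma called none of the 4 genes, of which AXL and GAS6 had an unadjusted p under 0.05. At single times the centred fits called none of them, where 0.0493% of genes were higher and 0.499% lower for 0 h, 0.0369% higher and 0.474% lower for 1.5 h, 0.0862% higher and 0.64% lower for 4.5 h, and 0.4% higher and 0.702% lower for 7.5 h. GAS6 at 7.5 h (−2.05, unadjusted p = 0.00631, adjusted p = 0.143) was the only one of them with an unadjusted p under 0.05.

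AXL rates stood low at the start of the chase and near the middle of all genes at its end. At 0 h the mean rate was 0.773% ± 0.0794 in A5-KD and 0.281% ± 0.00891 in control (SD, n = 2), above 32.2% of tested genes in A5-KD and above 24.7% in control. At 7.5 h it was 0.534% ± 0.00522 in A5-KD and 0.251% ± 0.0134 in control, above 47.5% of tested genes in A5-KD and above 45.9% in control. The rate at 7.5 h was 69.1% of that at 0 h in A5-KD and 89.3% in control, against medians of 50.6% in A5-KD and 53.8% in control. These shares were not corrected for conversions that arise without 4sU. In A5-KD the highest mean was 0.774% at 1.5 h, followed by 0.773% at 0 h, 0.623% at 4.5 h and 0.534% at 7.5 h. The first pair differed by less than its SD, and the libraries of the later times overlapped neither with those nor with each other. In control the highest mean was 0.281% at 0 h, followed by 0.263% at 1.5 h, 0.251% at 7.5 h and 0.239% at 4.5 h, and the libraries of 7.5 h overlapped with those of both neighbours in this order.

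The AXL slope was −0.07 log2 per hour in A5-KD (SE 0.0194, limma adjusted p = 0.00764) and −0.02 in control (SE 0.0194, adjusted p = 0.474). It was called as falling in A5-KD, where 37.9% of genes fell and 4.06% rose, and was not called in control, where 34.4% fell and 3.45% rose. The A5-KD call ended without the 7.5 h libraries (adjusted p = 0.147). The difference between the slopes was −0.05 (95% interval −0.11 to 0.01) and was not called (adjusted p = 0.697). On rates in percent without a logarithm it was called (−0.0307 percentage points per hour, adjusted p = 0.0474), as for 2141 of the 16241 tested genes. On that scale an equal fractional fall gives a steeper slope where rates are higher, as they were in A5-KD. The part of this in the AXL call was not tested. Relative to the library medians AXL rose in both genotypes, by 0.08 log2 per hour in A5-KD (SE 0.0185, adjusted p = 0.00447) and 0.12 in control (SE 0.0185, adjusted p = 2.20e-04). In centred fits 17.7% of genes were called as rising and 8.62% as falling in A5-KD, and 17.6% and 9.46% in control. Without the 7.5 h libraries the centred AXL call held in control (0.11, adjusted p = 0.0282) and ended in A5-KD (0.08, adjusted p = 0.108).

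**Figure D2:**
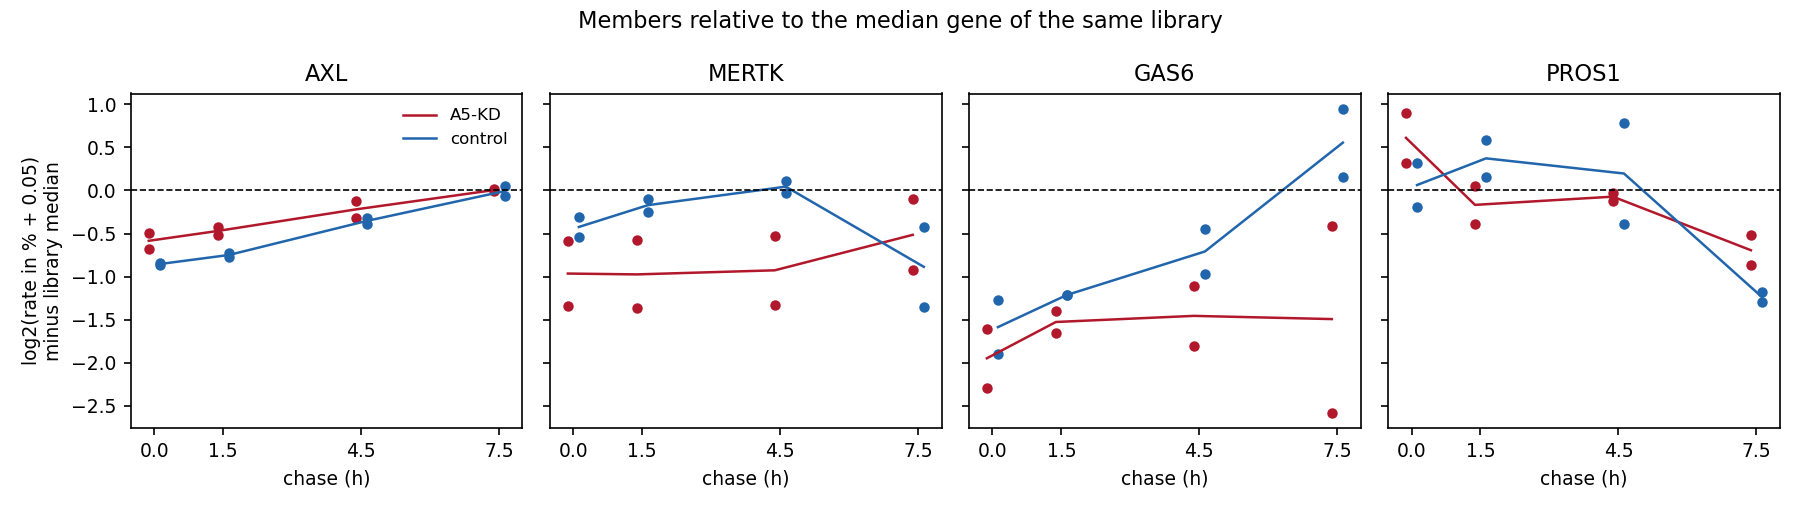
log2 of the rate in percent plus 0.05, minus the median log2 value of the tested genes in the same library (y axis), against hours of chase (x axis). Points are libraries, lines join means of 2, and the dashed line at 0 is the median gene. AXL climbs to near the median gene by 7.5 h in both genotypes, PROS1 ends below it, and GAS6 in control ends above it.

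MERTK, the TAM receptor most used by macrophages to engulf dying cells, had A5-KD replicates that did not match each other. At 0 h its rates were 0.437% and 0.767% in A5-KD, against 0.425% and 0.368% in control. At 1.5 h they were 0.393% and 0.712% in A5-KD, against 0.393% and 0.441% in control. Up to that time A5-KD replicate 1 lay close to the control libraries and replicate 2 above them. At 4.5 h they were 0.262% and 0.493% in A5-KD, against 0.343% and 0.318% in control. At 7.5 h they were 0.257% and 0.492% in A5-KD, against 0.0678% and 0.177% in control. The groups overlapped at 1.5 and 4.5 h and not at 0 and 7.5 h, with A5-KD above at both of these, which was so for 71.1% of tested genes at 0 h and 58.9% at 7.5 h.

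The MERTK effect over the whole chase was 0.56 log2 (SE 0.233, 1.48-fold, n = 8 libraries each, limma adjusted p = 0.0425), below the median of 1.02. After centring it was −0.49 (SE 0.242, unadjusted p = 0.0630, adjusted p = 0.288) and not called. It was 0.96 (adjusted p = 0.00730) with A5-KD replicate 1 left out at every time and 0.17 (adjusted p = 0.565) with A5-KD replicate 2 left out at every time. The call also ended without any of 10 libraries, namely A5-KD replicate 2 at 0, 1.5 and 4.5 h, either A5-KD library at 7.5 h, either control library at 0 h, control replicate 1 at 1.5 h and either control library at 7.5 h. Of the single times only 7.5 h was called for MERTK (1.32, SE 0.447, adjusted p = 0.0401). That call ended without A5-KD replicate 2 or control replicate 1 at 7.5 h, and without any control library at 0 or 1.5 h.

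MERTK fell by 0.19 log2 per hour in control (SE 0.0541, limma adjusted p = 0.0106), while its slope in A5-KD was −0.09 (SE 0.0541, adjusted p = 0.186). The control call ended without control replicate 1 at 7.5 h (−0.12, adjusted p = 0.119) and without the 7.5 h time point (−0.06, adjusted p = 0.638). The slopes differed by 0.10 (95% interval −0.06 to 0.26, adjusted p = 0.799), which was not called, and by 0.026 without control replicate 1 or 0.048 without A5-KD replicate 2 at 7.5 h. MERTK lies on chromosome 2 from 111898479 to 112029561 (plus strand, ENSG00000153208), and the pseudogene AC104651.1 on its opposite strand had 2.30 CPM. The strand setting of the authors' counting is not given in the sources used here.

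TYRO3 was not tested and was listed at 0 in 4 of 8 A5-KD libraries and 3 of 8 control libraries. Its other rates ran from 0.828% to 2.45% in A5-KD and from 0.370% to 3.88% in control.

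GAS6, the ligand shared by all TAM receptors, had the lowest rates of the 4 genes at 0 h. They were 0.357% and 0.200% in A5-KD, against 0.108% and 0.201% in control. At 1.5 h they were 0.312% and 0.384% in A5-KD, against 0.177% and 0.176% in control. The groups overlapped at 0 h and did not at 1.5 h, where A5-KD lay above, as it did for 74.3% of tested genes. At 4.5 h they were 0.174% and 0.313% in A5-KD, against 0.217% and 0.141% in control. At 7.5 h they were 0.0477% and 0.389% in A5-KD, against 0.530% and 0.289% in control. The A5-KD libraries at 7.5 h spanned a wider range than at any earlier time, and they overlapped with control.

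The GAS6 effect was 0.18 log2 over the whole chase (SE 0.338, 95% interval −0.54 to 0.90, limma adjusted p = 0.643) and was not called, overall or at any single time. With 1 library left out it ran from 0.07, without A5-KD replicate 1 at 0 h, to 0.50, without A5-KD replicate 1 at 7.5 h (adjusted p = 0.0577). It moved by over 1.5 times also without A5-KD replicate 2 at 1.5, 4.5 or 7.5 h, or without control replicate 1 at 0 or 7.5 h. Only 8.56% of tested genes had a lower effect, and after centring it was −0.87 (unadjusted p = 0.0191, adjusted p = 0.149). At 7.5 h it was −1.10 (SE 0.615, adjusted p = 0.191), against a median of 0.92. Without A5-KD replicate 2 at 7.5 h it was −2.18 (adjusted p = 0.0154), and without A5-KD replicate 1 at 7.5 h it was −0.01 (adjusted p = 1.00). Either leaves 1 A5-KD library at 7.5 h, whose spread is then taken from the other groups.

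GAS6 was the only one of the 4 genes whose mean rate was higher at 7.5 h than at 0 h in either genotype. In control it averaged 0.409% ± 0.170 at 7.5 h and 0.155% ± 0.0663 at 0 h (SD, n = 2), or 265% of the 0 h rate, while the A5-KD share was 78.3%. Its slope was −0.10 log2 per hour in A5-KD (adjusted p = 0.265) and 0.14 in control (SE 0.0697, adjusted p = 0.130), above the slopes of 95.1% of tested genes, and neither was called. Relative to the library medians GAS6 rose in control by 0.27 log2 per hour (SE 0.0682, adjusted p = 0.00685). That call ended without control replicate 1 at 7.5 h (0.22, adjusted p = 0.0558) and without the 7.5 h libraries (0.19, adjusted p = 0.129). The difference between the slopes was −0.24 (SE 0.0985, unadjusted p = 0.0269, adjusted p = 0.578) and was not called. It was −0.12 without A5-KD replicate 1 at 7.5 h, and the control slope was 0.08 without control replicate 1 at 7.5 h. GAS6 lies on chromosome 13 from 113820549 to 113864067 (minus strand, ENSG00000183087). GAS6-AS1 overlaps it on the opposite strand from 113815630 to 113845744 and had 3.33 CPM, so the part of its reads in the GAS6 rate was not tested.

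PROS1, which encodes protein S, had the steepest fall of the 4 genes in both genotypes. At 0 h its rates were 2.27% and 1.48% in A5-KD, against 0.467% and 0.703% in control. At 1.5 h they were 0.824% and 1.13% in A5-KD, against 0.537% and 0.738% in control. Both A5-KD libraries lay above both control libraries at these times. At 4.5 h they were 0.718% and 0.672% in A5-KD, against 0.226% and 0.596% in control. At 7.5 h they were 0.270% and 0.355% in A5-KD, against 0.0720% and 0.0845% in control. The groups did not overlap at any time, as for 40.5% of tested genes with A5-KD above throughout, and the control libraries at 4.5 h lay far apart.

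The PROS1 effect over the whole chase was 1.12 log2 (SE 0.216, 2.17-fold, n = 8 libraries each, limma adjusted p = 3.22e-04), near the median of 1.02, and 0.07 when centred (95% interval −0.40 to 0.54, adjusted p = 0.905). It was called at 0 h (1.59, SE 0.409, adjusted p = 0.0115) and at 7.5 h (1.49, SE 0.409, adjusted p = 0.0162), but not at 1.5 h (0.58, adjusted p = 0.276) or 4.5 h (0.82, adjusted p = 0.133). The 0 h call ended without A5-KD or control replicate 1 at 0 h (1.29 and 1.32). The 7.5 h call ended without A5-KD replicate 2 or control replicate 1 at 7.5 h (1.32 and 1.42). Without control replicate 2 at 4.5 h the effect at 4.5 h was 1.43 (adjusted p = 0.0216). All of these left 1 library in a group, which is then assumed to vary like the others.

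**Figure D3:**
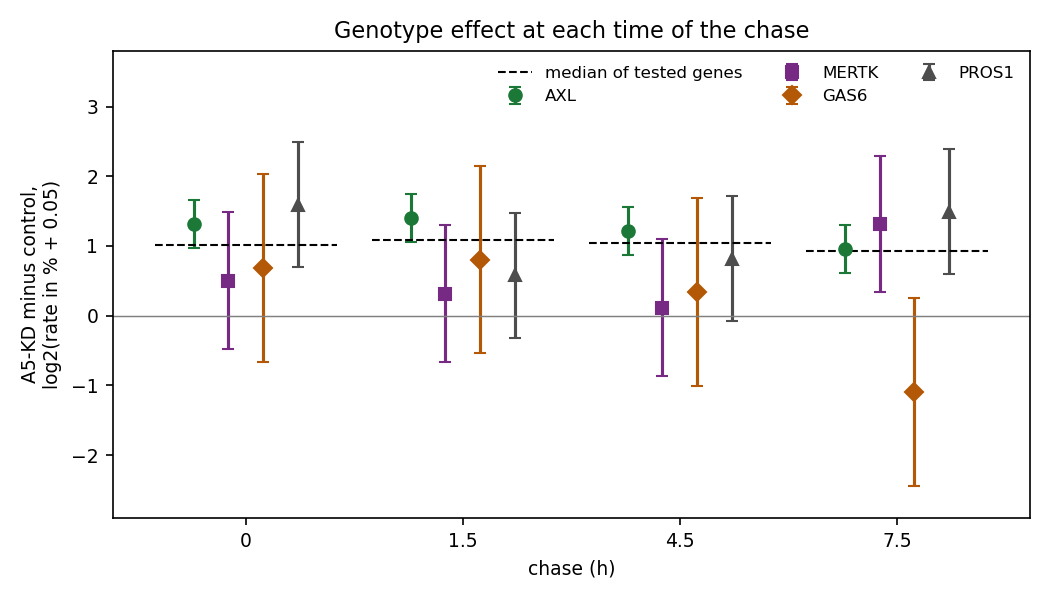
A5-KD minus control in log2 of the rate in percent plus 0.05 (y axis) at each time of the chase (x axis), with 95% intervals from limma. Dashed lines are the median over the tested genes, between 0.92 and 1.08. The AXL intervals are the narrowest of the 4 genes at each time, and the GAS6 estimate at 7.5 h, −1.10, is the only one below 0.

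PROS1 fell by 0.29 log2 per hour in A5-KD (SE 0.0561, limma adjusted p = 6.10e-04) and by 0.31 in control (SE 0.0561, adjusted p = 4.41e-04). Only 12.5% of tested genes had a lower slope in A5-KD and 9.86% in control. The halving times, which the added 0.05 lengthens, were 3.43 h in A5-KD and 3.23 h in control. At 7.5 h the rate was 16.7% of that at 0 h in A5-KD and 13.4% in control. Relative to the library medians the slope was −0.14 in A5-KD (adjusted p = 0.0856) and −0.17 in control (adjusted p = 0.0355) and called, and the control call ended without any of 5 control libraries. The slopes differed by 0.02 (95% interval −0.15 to 0.19, adjusted p = 0.978). Without the 7.5 h libraries the A5-KD slope was −0.28 (adjusted p = 0.0513) and the control slope −0.14 (adjusted p = 0.312), so both calls ended and the control value moved by more than 1.5 times. The mean at 1.5 h was 52.3% of that at 0 h in A5-KD and 109% in control, against medians of 92.0% and 87.5% for the same groups. PROS1 lies on chromosome 3 from 93873033 to 93980003 (minus strand, ENSG00000184500). Its pseudogene PROS2P had 0.0794 CPM.

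**Figure D4:**
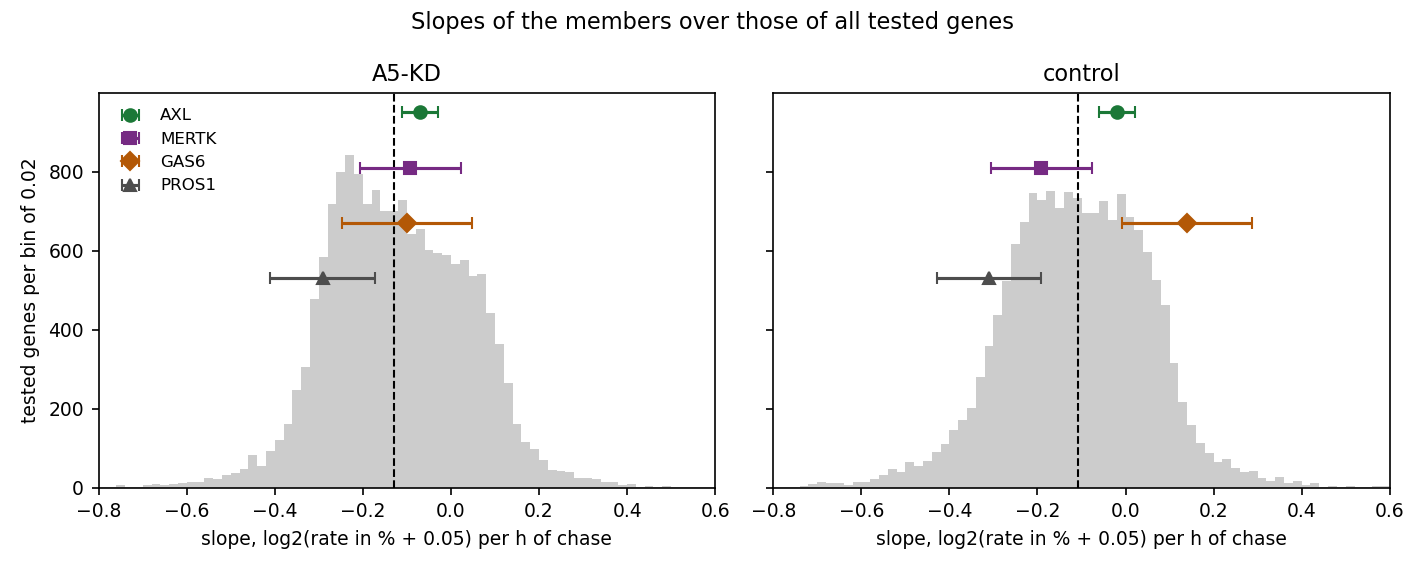
Slopes in log2 of the rate in percent plus 0.05 per hour of chase (x axis) for A5-KD on the left and control on the right, with 95% intervals from limma at arbitrary heights. The grey histogram counts all tested genes in bins of 0.02 (y axis) and the dashed line is their median. PROS1 lies on the falling side in both panels, while GAS6 lies at −0.10 in A5-KD and at 0.14 in control.

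For the difference between slopes, limma called 0% of genes, 0 of 16241, with 1269 at an unadjusted p under 0.05. This was on the log2 scale. On rates in percent without a logarithm 2141 of the 16241 genes were called, AXL among them. There an equal fractional fall is steeper in the genotype with the higher rates. The genotype effects of the genes were also compared with each other, as the difference in log2 rate between 2 genes of the same library. AXL minus MERTK averaged 0.53 ± 0.46 in A5-KD and −0.13 ± 0.69 in control (SD over 8 libraries across the 4 times), so the effect was 0.66 log2 larger for AXL. The 2-sided exact permutation test within times gave p = 0.0432, and 0.0671 adjusted over the 3 pairs compared, where the smallest p it allows is 0.00154. PROS1 minus GAS6 averaged 1.52 ± 0.87 in A5-KD and 0.59 ± 1.59 in control, a difference of 0.94 (exact p = 0.0448, adjusted 0.0671). AXL minus PROS1 averaged −0.24 ± 0.75 in A5-KD and −0.34 ± 1.05 in control, a difference of 0.10 (exact p = 0.657, adjusted 0.657). None of the 3 pairs passed after adjustment.

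Among the genes that process TAM proteins, 8 of 8 tested were higher in A5-KD over the whole chase, against 69.6% of all genes, with a median of 1.08 log2 against 1.02. ADAM17 and ADAM10, the proteases that shed MERTK and AXL from the cell surface, were 1.18 (SE 0.0797) and 1.05 (SE 0.137) log2 higher. TIMP1, a metalloprotease inhibitor, was 1.11 higher, and NQO1, a quinone reductase, 0.87 higher. VKORC1, which recycles vitamin K for the carboxylation of GAS6 and protein S, rose over the chase by 0.17 log2 per hour in A5-KD (adjusted p = 0.00555) and by 0.19 in control (adjusted p = 0.00249). Of these 8 genes 1 rose and 3 fell in each genotype over the chase, where 4.06% of all genes rose and 37.9% fell in A5-KD, and 3.45% rose and 34.4% fell in control. The median slope of the 8 was −0.06 log2 per hour in A5-KD and 0.01 in control.

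Other phagocytic receptors and bridging molecules had 13 of 23 listed genes tested, and 8 were higher in A5-KD, where 69.6% of all genes were, with a median effect of 0.99 log2. Calreticulin (CALR), an eat-me signal, was 1.16 higher, galectin-3 (LGALS3), reported as a MERTK ligand, 1.00, the scavenger receptor CD36 1.11 and the don't-eat-me signal CD47 0.99. CD36 fell by 0.28 log2 per hour in A5-KD and by 0.25 in control, among 4 of the 13 that fell in each genotype, against 37.9% of all genes in A5-KD and 34.4% in control. LGALS3 alone rose in A5-KD, by 0.06 log2 per hour, where 4.06% of all genes rose. In control 0 rose, where 3.45% of all genes did.

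Downstream signalling genes had 21 of 22 tested, and 18 were higher in A5-KD, where 69.6% of all genes were, with a median effect of 1.17 log2. The adaptor GRB2 was 1.15 log2 higher, the GTPase RAC1 1.17 higher and ELMO1, a partner in its activation, 0.82. Over the chase 14 fell in A5-KD, against 37.9% of all genes, and 15 fell in control, against 34.4%. In either genotype 0 rose, where 4.06% of all genes rose in A5-KD and 3.45% in control. Their slopes had a median of −0.21 log2 per hour in A5-KD and −0.20 in control, against −0.13 and −0.11 for all genes of the same groups. After centring 1 of the 21 was lower in A5-KD, DOCK1 at −1.70 (SE 0.470, 2.38 CPM), as were 4.59% of all genes.

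Of 40 other receptor tyrosine kinases listed 22 were tested, and 7 were higher in A5-KD over the whole chase, where 69.6% of all genes were, with a median effect of 0.75 log2. Many had few reads, against a median of 9.66 CPM for the tested genes. Genes not called included FGFR2 (5.05 CPM, 1.65, SE 1.01), MET (1.16 CPM, 1.21, SE 0.919) and ROS1 (1.59 CPM, −0.58, SE 0.652). The part of low abundance in the counts of this list was not tested. FGFR1 was 0.78 higher, the insulin receptor INSR 0.96, FLT3, a receptor of leukaemic progenitors, 0.54 and RET 0.93. After centring 2 of the 22 were lower, FLT3 (−0.51, adjusted p = 0.0122) and ROR1 (−1.44, adjusted p = 0.00594), against 4.59% of all genes. Of these receptors 7 fell over the chase in A5-KD, against 37.9% of all genes, and 3 fell in control, against 34.4%. These counts do not show that the genotypes differed, since no slope difference was called on the log2 scale. Of 14 other Gla protein genes and binding partners of protein S listed, 3 were tested, the transmembrane Gla proteins PRRG1, PRRG4 and PRRG2, and all 3 were higher in A5-KD (0.80, 1.27 and 2.30 log2), where 69.6% of all genes were. PRRG2, at 1.35 CPM, lay close to the abundance minimum and to the threshold (SE 0.966, limma adjusted p = 0.0455).

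The genes with profiles most like each member were found by the root mean square difference in log2 rate over the 16 libraries, after each gene's own mean was taken away. The search covered 7784 genes at or above the median CPM with a rate above 0 in every library. For AXL the nearest were YWHAZ, a 14-3-3 protein, at 0.133, CDC42, a GTPase, at 0.147, ENSG00000254462 at 0.147 and the ribosomal protein gene RPS24 at 0.152, against a median of 0.536 over all candidates. For MERTK they were MSH6, a mismatch repair gene, at 0.330, TK2 at 0.363, CCDC144NL at 0.377 and TMOD3 at 0.380. For GAS6 they were ERMP1 at 0.386, SHC4 at 0.472, DLEU1 at 0.477 and MYCBP2-AS1 at 0.487. For PROS1 they were CDC73, a subunit of the PAF1 complex, at 0.314, WDFY3 at 0.346, ENSG00000285733 at 0.356 and NUP214, a nucleoporin, at 0.368. Between the members the difference ran from 0.640 for AXL and MERTK to 1.29 for GAS6 and PROS1, and the medians over all candidates were 0.699 for MERTK, 0.930 for GAS6 and 0.810 for PROS1.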

How the data were processed

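SLAM-seq conversion rates in 16 THP-1 libraries were analysed. The rates are a fraction in the authors' deposited table, whose header names no unit, and were multiplied to percent. The deposited CPM column names no library. It was used for the filter, the variance trend and abundance, and all its values under 1000 reads were whole within 0.1 at 0.0265 CPM a read. CASAVA, HISAT2 2.1.0 and the hg38 build are named, per the submitters' processing notes; for the rate caller and the annotation nothing is given in these sources. The gene length was not used.

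The fits used limma 3.58.1 (R 4.3.3) on log2(rate in percent + 0.05) for genes that reached 1 CPM and were not listed at 0 in every library, with variances trended on log2(CPM + 0.01) and Benjamini-Hochberg adjustment over 16241 genes at 0.05. The models were genotype with time as a factor, a slope per genotype, and 8 group means. Pairs of genes were compared by exact permutation in Python 3.11.15. Scripts were tested on simulated data. Symbols were completed from the reference gene names for 41255 rows without one. Transcript sequences and gene coordinates came from GENCODE 29 on GRCh38.

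The members, lists and settings were chosen with earlier results of these data known. Named genes were the 4 members, TYRO3, ALKBH5, the most abundant members of each list (up to 4) and the 4 nearest profiles; other list members named were chosen after their values were seen, and a few genes of the lists are not reported here. Alternatives were other pseudocounts, filters, scales and trends, centring, a replicate block, and leaving out libraries.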

Additional observations from a re-analysis of the deposited data

How the results depend on the processing

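Of the tested results set against an alternative, 1010 kept their direction and their side of the threshold, 51 lost a call, 14 gained one and 35 reversed. For many the direction was fixed in advance, so the tally does not measure stability. Leaving out a library of another time leaves a single-time estimate unchanged, as does one of the other genotype for a slope. A replicate block, the variance trend and the abundance minimum leave uncentred estimates unchanged too. The AXL genotype effect and PROS1's over the whole chase kept their calls under every uncentred alternative that was run. The replicate numbers showed no pairing over the tested genes as a whole. Over 28 pairs of groups the correlations of their deviations ran from −0.02 to 0.04. A correlation over all genes cannot exclude pairing in single genes, and MERTK in A5-KD was higher in replicate 2 at every time. A replicate block gave 11319 calls for the genotype effect over the chase, against 11325 without it, and changed no call of the 4 genes in the uncentred models or in the centred genotype effect over the chase. It was not run on the centred slopes, the centred single times or the pairs of genes. The rates carry no depth, 2 libraries a group leave the single-time effects least certain, and where an alternative changed a value below, the cause was not tested unless its construction is named.

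Centring each library on its median takes the common shift out by construction. It left 4267 calls for the A5-KD slopes, and 89, 83, 118 and 179 calls for the genotype effect at 0, 1.5, 4.5 and 7.5 h. The A5-KD slopes became 0.079 for AXL, 0.058 for MERTK, 0.049 for GAS6 and −0.14 for PROS1, the last no longer called. The control slopes became 0.12 for AXL, −0.056 and not called for MERTK, and 0.27 and called for GAS6. Genotype effects turned to −0.54 at 0 h, −0.80 at 1.5 h and −0.97 at 4.5 h for MERTK, with 0.37 at 7.5 h. For GAS6 they turned to −0.36, −0.31 and −0.75 at the first 3 times. PROS1 gave 0.55, −0.54, −0.27 and 0.54, and AXL 0.27, 0.28, 0.13 and 0.011, in the order of the chase. No single-time effect of the 4 genes was called after centring.

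On rates in percent without a logarithm there were 3576 calls for the centred genotype effect, 2167 for the control slopes, 2141 for the slope difference and 2454 for the effect at 7.5 h. The MERTK effect was then 0.160 percentage points over the chase (adjusted p = 0.0579) and 0.252 at 7.5 h, and PROS1's was 0.235 at 7.5 h, none called. The centred effects were −0.0679 for AXL, and −0.326 for MERTK and −0.444 for GAS6, both called, as were 3576 of the 16241 tested genes. In percent, centring does not take out a shift by a common factor. By construction, such a shift turns genes with rates below the median lower in the genotype with the higher rates. The control slopes of MERTK (−0.0375 per hour) and PROS1 (−0.0719) lost their calls. The slope difference was −0.0307 for AXL and called (adjusted p = 0.0474, against 0.697 on the log2 scale and 0.589 to 0.818 with a library left out), and −0.111 for PROS1 and not called.

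Without the abundance minimum the library medians include many genes listed at 0. MERTK then missed the threshold over the chase (0.56, adjusted p = 0.0856) and at 7.5 h (1.32). The centred genotype effect had 5781 calls there, in both directions together and among more genes than the 16241 of the main fit. The share of genes called is not reported here. The effects were −0.51 for AXL, −1.17 for MERTK, −1.55 for GAS6 and −0.62 for PROS1, of which MERTK and GAS6 were called. With no variance trend 1 gene was called for the slope difference. With a pseudocount of 0.1 the PROS1 slope difference was −0.010, and 2 pair differences passed, AXL minus MERTK at 0.61 and PROS1 minus GAS6 at 0.84 (adjusted exact p = 0.0463 for both). With one of 0.005, chosen after seeing the data, the MERTK effect was 0.66 and not called, and the centred effect had 617 calls.

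Leaving out the 7.5 h libraries, also chosen after seeing the data, left 4076 calls for the A5-KD slopes and ended the calls of the A5-KD slopes of AXL (−0.069) and PROS1 (−0.28) and of the control slopes of MERTK (−0.058) and PROS1 (−0.14). The slope differences turned to −0.083 for MERTK and −0.14 for PROS1. The centred control slopes were 0.099 for MERTK, 0.19 for GAS6 and 0.017 for PROS1, and AXL's centred A5-KD slope was 0.081, none of them called. Leaving out A5-KD replicate 1 at every time, chosen in the same way, left 312 calls for the centred effect, and leaving out replicate 2 left 354, with 0.17 for MERTK and −0.12 for GAS6 over the chase, neither called.

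With each library left out in turn, the genotype effect ran from 0.41 to 0.68 for MERTK over the chase, from −0.076 to 0.71 at 1.5 h, from −0.28 to 0.51 at 4.5 h and from 0.85 to 1.79 at 7.5 h. For GAS6 it ran from 0.07 to 0.50 over the chase, from −0.0077 to 0.69 at 4.5 h and from −2.18 to −0.015 at 7.5 h. For PROS1 it ran from 1.29 to 1.89 at 0 h, from 0.20 to 1.43 at 4.5 h, from 1.32 to 1.66 at 7.5 h and from −0.026 to 0.21 over the chase after centring. The A5-KD slope of GAS6 ran from −0.20, called without A5-KD replicate 2 at 7.5 h, to 0.017 without replicate 1, and from −0.051 to 0.17 after centring. The control slope of MERTK ran from −0.22 to −0.12, and from −0.082 to 0.021 after centring. Centred control slopes ran from 0.22 to 0.30 for GAS6 and from −0.22 to −0.13 for PROS1, whose call ended without any of 5 control libraries, and the centred A5-KD slope of PROS1 from −0.16 to −0.10. The slope difference ran from −0.021 to 0.065 for PROS1, from 0.026 to 0.13 for MERTK and from −0.34 to −0.12 for GAS6, whose control slope ran from 0.080 to 0.17. Pair differences ran from 0.53 to 0.79 for AXL minus MERTK, from 0.71 to 1.17 for PROS1 minus GAS6 and from −0.035 to 0.24 for AXL minus PROS1. Between 3331 and 6430 genes were called at 0 h, between 3737 and 6943 at 1.5 h and between 4080 and 6912 at 4.5 h, with 0 to 2 for the slope difference, where a group of 1 library lowers the count by construction.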

Other observations

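The MERTK rate in A5-KD was higher in replicate 2 than in replicate 1 by nearly the same factor at every time, a pattern noticed in the values. The ratio of replicate 2 to replicate 1 was 1.76, 1.81, 1.88 and 1.92 in A5-KD in the order of the chase. The same ratio was 0.865, 1.12, 0.927 and 2.61 in control. The A5-KD library medians did not differ in this way, at 1.19% and 1.18% for the 2 replicates at 0 h and 0.533% and 0.532% at 7.5 h. A ratio of at least 1.76 at all 4 times was found in 136 of the 16241 tested genes, or 0.837%, and replicate 2 lay above replicate 1 at all 4 times in 6.79%. That cut-off is the lowest ratio of MERTK itself, and genes with replicate 1 higher by as much were not counted. The share is therefore no measure of how rare such a split is. In A5-KD the AXL ratio ran from 0.865 to 1.17 over the 4 times.

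ALKBH5, with 172 reads in the CPM column, fell by 0.54 log2 per hour in A5-KD (SE 0.0763, limma adjusted p = 4.35e-05) and by 0.26 in control (SE 0.0763, adjusted p = 0.0145). The difference of −0.28 was not called (SE 0.108, adjusted p = 0.544). Its rate at 7.5 h was 0.108% and 0.149% in A5-KD, against 0.0982% and 0.191% in control.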
